A study of Mus musculus with 12 samples.

Results

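The ETS transcription factor genes Etv5, Ets1, Elk1, Elf1, Elf2 and Spib were followed across the sorted marrow cells of mice with reduced or absent Erg, itself an ETS gene. All 6 were found by gene symbol in the probe annotation, out of 9984 genes with a value. Each has 1 probe set among those annotated to a single gene, so none had to be chosen among several. The 523 probe sets with several symbols and the 7539 without a listed symbol were not searched for these genes. The annotation gives a single-gene probe set to 12 of 27 listed mouse ETS genes, and the other 6 of these serve below as their family background. The remaining ETS genes, Erg among them, are not analysed here, so the genotypes were not checked on Erg itself.

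Hematopoietic stem cells (HSCs) came from Erg +/- mice, made with a general Cre deleter line, and from Erg +/+ mice. They were sorted as Lineage-, Sca-1+ and c-kit+ cells that carry CD150 and lack CD48. Multipotent progenitors (MPPs) came from Erg -/- mice, which are Erg fl/fl mice with the Mx1-Cre transgene, and from Erg fl/fl mice without Cre. Between these MPP groups Cre changes together with the loss of Erg, and the 2 cannot be told apart. Mx1-Cre is switched on by interferon, in many cell types and not in blood cells alone. Both MPP groups therefore received the interferon inducer pIpC as 5 injections, with the sort 2 weeks later counted from the first of them. The deletion removes exon 11, which encodes the DNA-binding domain of Erg. All mice were male and of a C57Bl/6 background, with their age not stated, and each group had 3 arrays. The Erg +/- samples are titled KO although 1 allele remains, and the MPP labels give 2 different gates, CD150-negative in one field and CD150-positive, CD48-negative in another. The labels do not say whether each array had its own animal. The p-values therefore reflect the spread among these samples, and that spread may be technical.

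ETS factors share a DNA-binding domain, a winged helix-turn-helix that reads DNA around the core letters GGAA. In blood they divide the work between stem cells and lineages, and several members can occupy the same site. Among the signals they answer are those of the ERK kinases, which lie upstream of Elk1 and Etv5 among others. Ets1, Elf1, Elf2 and Spib are best known from lymphoid cells.

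The array values are log2 intensities, so a difference of 1 is a doubling, and levels of different probe sets cannot be set against each other. Array medians lay between 5.41 and 5.54, and within groups the correlation of arrays across genes ran from r = 0.9528 to 0.9743. Differences were tested with limma, and the threshold is an adjusted p under 0.05 over all 9984 genes. Marker lists of the populations were read on the same arrays. They were chosen with earlier results of these data known, so they are not an independent check of the labels. All 6 measured HSC-associated genes had lower values in Erg fl/fl MPPs than in Erg +/+ HSCs, 4 of them past the threshold, and their mean over the list was 7.03 to 7.13 per array in Erg fl/fl MPPs, against 8.86 to 9.05 in Erg +/+ HSCs. Of 5 MPP-associated genes 4 were higher in Erg fl/fl MPPs, 2 past the threshold, with means per array of 7.76 to 7.98, against 6.36 to 6.78 in Erg +/+ HSCs. The genes of the sorting antigens are not analysed here.

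Etv5 is the member whose values differed most between genotypes, and its promoter is shown here because ETS factors could in principle read it. RefSeq lists 2 starts for mouse Etv5 on chromosome 16, minus strand, and the 250 bases before each are printed from the GRCm38.p6 table. Capitals mark GGAA, or TTCC, which is GGAA on the other strand. The first window, chr16:22439571-22439820, lies before the outer start, and the second, chr16:22438369-22438618, before the other, farther along the gene.
Etv5 window 1: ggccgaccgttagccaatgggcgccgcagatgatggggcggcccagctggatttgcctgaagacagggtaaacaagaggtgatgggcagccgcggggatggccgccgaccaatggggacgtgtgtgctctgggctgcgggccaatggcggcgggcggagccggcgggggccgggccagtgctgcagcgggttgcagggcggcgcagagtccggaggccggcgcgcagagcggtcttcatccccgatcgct
Etv5 window 2: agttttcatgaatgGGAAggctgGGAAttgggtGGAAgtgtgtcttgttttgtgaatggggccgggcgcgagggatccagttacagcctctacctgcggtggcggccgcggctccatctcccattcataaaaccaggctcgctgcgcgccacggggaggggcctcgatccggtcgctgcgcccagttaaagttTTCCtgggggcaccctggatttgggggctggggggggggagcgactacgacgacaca
The first window holds 0 copies of GGAA on either strand, and the second holds 4. At least 1 copy is held by 93.4% of the 32851 windows of this length from RefSeq. The longer letters CCGGAAGT, a sequence ETS proteins bind strongly, were in neither Etv5 window and in 2.88% of all windows on either strand. These letter matches describe the windows and say nothing on whether a factor binds there. The GGAA counts of the other members' windows ran from 0 in one Elf1 window to 6 in one Elf2 window, and Ets1 is not in the table.

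The probe set of Etv5 calls for care. The platform annotation names Etv5 alone, but its ID falls among probe sets of another chromosome. Of the 12 nearest probe sets by ID with a single gene, 0 have their gene on chromosome 16 and all 12 have it on chromosome 10. For the other members 10 to 12 of 12 neighbours lie on the member's own chromosome. Among 10606 such probe sets 2.43% have no neighbour on their own gene's chromosome. Whether the Etv5 probes also match a similar sequence elsewhere in the genome was not tested. Whether the promoter printed above belongs to the sequence measured was therefore not tested either. Etv5 values, above and below, mean those of this probe set.

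Across the 4 groups Etv5 was highest in Erg +/- HSCs and lowest in Erg fl/fl MPPs. Etv5, also called ERM, belongs to the PEA3 subfamily and is induced by ERK signals. In Erg +/- HSCs its 3 arrays read 6.78, 7.09 and 7.22, against 6.58, 6.33 and 6.08 in Erg +/+ HSCs. Every Erg +/- array lay above every Erg +/+ array. The means were 7.03 ± 0.227 in Erg +/- HSCs and 6.33 ± 0.249 in Erg +/+ HSCs (SD, n = 3 each), a 1.62-fold difference. In Erg -/- MPPs the arrays read 6.43, 7.05 and 6.60, against 5.77, 5.74 and 5.88 in Erg fl/fl MPPs. Here too the groups did not overlap, and the control arrays lay close together. The means were 6.69 ± 0.319 in Erg -/- MPPs and 5.79 ± 0.0719 in Erg fl/fl MPPs (SD, n = 3 each), a 1.86-fold difference.

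**Figure D1:**
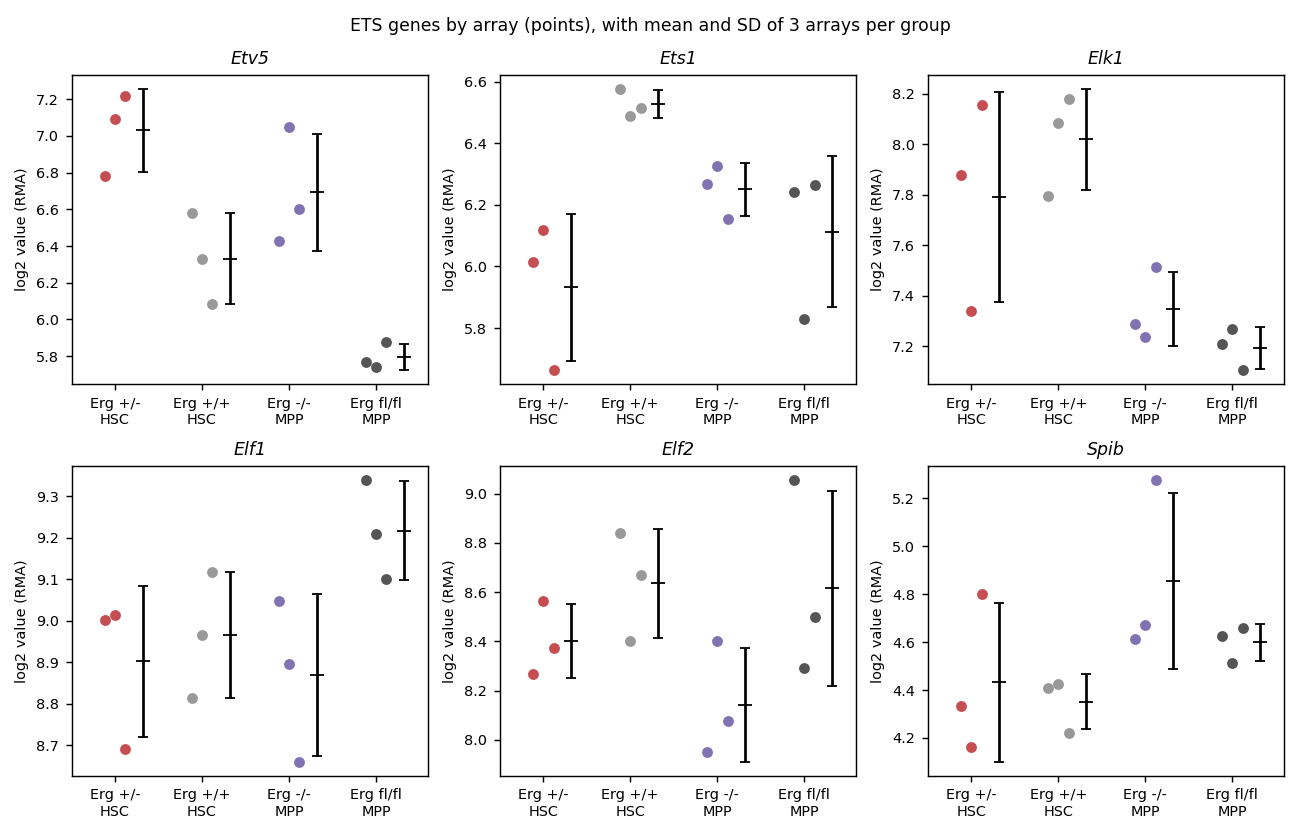
Log2 values of the 6 ETS genes (y axis, own scale per gene) in each array (points) of Erg +/- HSCs, Erg +/+ HSCs, Erg -/- MPPs and Erg fl/fl MPPs, with the mean and SD of 3 arrays beside them. Etv5 lies higher in the Erg-reduced group of both populations, the Ets1 arrays of Erg +/- HSCs lie below those of Erg +/+ HSCs, and the Elk1 arrays of both MPP groups lie below those of Erg +/+ HSCs.

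Neither Etv5 difference passed the threshold over all genes. In HSCs it was 0.70 log2 units (95% interval 0.26 to 1.14), with limma's adjusted p = 0.559, and in MPPs 0.90 (0.46 to 1.34), with adjusted p = 0.304. The same model also averaged the effects in HSCs and in MPPs, which come from different arrays and 1 estimate of the spread. These effects differ in the number of Erg alleles lost, the Cre line and pIpC as well as in population. Neither their mean nor their difference can tell these apart. The mean effect on Etv5 was 0.80 log2 units (0.49 to 1.11), which ranked number 11 of 9984 genes by p, with limma's adjusted p = 0.0921. It passed with a repeated quantile normalisation (0.88, adjusted p = 0.0262) and did not pass under any of the other 20 alternatives, where the adjusted p reached 0.364. The direction was the same in both populations whichever array was left out, with 0.58 to 0.83 in HSCs and 0.72 to 1.03 in MPPs. The MPP effect minus the HSC effect was 0.20 (-0.42 to 0.82), an interval that includes 0. It was 0.022 without Erg -/- replicate 2 and 0.33 without Erg -/- replicate 1.

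Erythroid markers had the sign of Etv5 in both genotype comparisons. The difference was above 0 for 9 of 9 erythroid genes in HSCs and for 9 of 9 in MPPs, with 0 past the threshold in either. Their mean per array was 6.61 to 6.90 in Erg +/- HSCs and 5.67 to 6.12 in Erg +/+ HSCs. It was 6.30 to 6.95 in Erg -/- MPPs and 5.98 to 6.35 in Erg fl/fl MPPs, where the ranges overlap. Between Erg fl/fl MPPs and Erg +/+ HSCs 8 of the 9 genes were above 0, whereas Etv5 stood at -0.54. Between Erg -/- MPPs and Erg +/- HSCs 6 of the 9 were below 0, and Etv5 stood at -0.34. The part of these markers in the Etv5 difference was not tested. In bulk samples, a smaller number of cells of one type and less RNA per cell cannot be told apart.

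Elk1, like Etv5 downstream of ERK, had its lowest levels in MPPs of both genotypes. It is a ternary complex factor that joins SRF, the serum response factor, at immediate-early genes. Its arrays read 7.88, 7.34 and 8.16 in Erg +/- HSCs, against 7.79, 8.08 and 8.18 in Erg +/+ HSCs. One Erg +/- array, replicate 2, lay well below the other 5, and the groups overlapped. In Erg -/- MPPs they read 7.29, 7.24 and 7.51, against 7.21, 7.27 and 7.10 in Erg fl/fl MPPs. All 6 MPP arrays were lower than all 3 Erg +/+ HSC arrays. The difference was -0.23 in HSCs (limma, adjusted p = 0.938), which is -0.0031 without Erg +/- replicate 2, and 0.15 in MPPs (adjusted p = 0.998).

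Ets1, which is needed for normal natural killer and B cell development and is also made by endothelial cells, had a negative difference in HSCs and a positive one in MPPs. Its arrays read 6.02, 6.12 and 5.66 in Erg +/- HSCs, against 6.58, 6.49 and 6.51 in Erg +/+ HSCs. All Erg +/- arrays lay below all Erg +/+ arrays, which were tightly grouped. The means were 5.93 ± 0.238 in Erg +/- HSCs and 6.53 ± 0.0453 in Erg +/+ HSCs (SD, n = 3 each). In Erg -/- MPPs the arrays read 6.27, 6.33 and 6.16, against 6.24, 5.83 and 6.27 in Erg fl/fl MPPs. These groups overlapped, with Erg fl/fl replicate 2 as the lowest array.

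The Ets1 difference was -0.60 log2 units in HSCs (-0.97 to -0.22), 1.51-fold lower in Erg +/-, with limma's adjusted p = 0.559. In MPPs it was 0.14 (-0.24 to 0.51), with adjusted p = 0.998. Leaving out Erg fl/fl MPP replicate 2 gave -0.0043. The MPP effect minus the HSC effect was 0.73 log2 units (0.20 to 1.27), with limma's adjusted p = 1. Ets1 was the 1 member of 6 with an unadjusted p under 0.05 there, against 3.88% of all genes, and 0 members passed after adjustment, against 0.02% of all genes. Between the HSC and MPP effects the number of Erg alleles lost, the Cre line and pIpC change together with the population, and these cannot be told apart.

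Markers of endothelial cells, which also make Ets1, and of stromal cells are given beside it. Of 7 measured genes 6 had negative differences in Erg +/- HSCs and 1, the matrix protein gene Sparc, fell by 2.08 log2 units (limma, adjusted p = 0.0401). Their mean per array was 5.17 to 5.30 in Erg +/- HSCs and 5.83 to 6.33 in Erg +/+ HSCs. In MPPs it was 5.29 to 5.65 in Erg -/- and 5.50 to 5.61 in Erg fl/fl cells. The gene of the endothelial adhesion molecule PECAM-1, Pecam1, stood at -0.47 log2 units and that of the VEGF receptor, Kdr, at -0.52 in Erg +/- HSCs, both short of the threshold. Cxcl12 stood at -1.75 there (limma, adjusted p = 0.597), and Dcn, the 1 gene above 0, at 0.09. In Erg -/- MPPs, where Ets1 stood at 0.14, 4 of the 7 were below 0, with Pecam1 at -0.43 and Kdr at 0.30. The part of these markers in the Ets1 difference was not tested.

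Elf1 and Elf2 stood below 0 in MPPs, and in HSCs the sign of Elf1 depended on single arrays. Elf1 is expressed in lymphoid cells and acts on stem cell genes such as Tal1. Its arrays read 9.001, 9.01 and 8.69 in Erg +/- HSCs, against 8.81, 8.97 and 9.12 in Erg +/+ HSCs, where the groups overlapped. They read 9.05, 8.90 and 8.66 in Erg -/- MPPs, against 9.34, 9.21 and 9.10 in Erg fl/fl MPPs, where they did not. The HSC difference was -0.06 log2 units (limma, adjusted p = 0.985), and it was above 0 without Erg +/+ replicate 3 (0.013) or without Erg +/- replicate 3 (0.042). The MPP difference was -0.35 log2 units (-0.71 to 0.02; limma, adjusted p = 0.998).

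Elf2, also called NERF, is made in activating and inhibiting isoforms that 1 probe set does not separate. Its arrays read 8.27, 8.57 and 8.37 in Erg +/- HSCs, against 8.84, 8.40 and 8.67 in Erg +/+ HSCs. In Erg -/- MPPs they read 7.95, 8.40 and 8.08, against 9.06, 8.29 and 8.50 in Erg fl/fl MPPs. The groups overlapped in both populations. The difference was -0.23 log2 units in HSCs (limma, adjusted p = 0.94) and -0.47 in MPPs (-0.94 to -0.0015; adjusted p = 0.998). The MPP value was -0.25 without Erg fl/fl replicate 1, the array of lowest weight. The mean effect was -0.35 (-0.69 to -0.02; adjusted p = 0.71), and -0.19 without Erg fl/fl MPP replicate 1 and the other low-weight array, replicate 1 of Erg +/+ HSCs.

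Spib encodes Spi-B, the factor closest to PU.1, and acts in B cells and plasmacytoid dendritic cells. Its arrays read 4.33, 4.16 and 4.80 in Erg +/- HSCs, against 4.41, 4.43 and 4.22 in Erg +/+ HSCs. They read 4.61, 4.67 and 5.28 in Erg -/- MPPs, against 4.62, 4.51 and 4.66 in Erg fl/fl MPPs. In each Erg-reduced group 1 array, replicate 3, stood well above the other 2, and all groups of a population overlapped. All 12 values of Spib lay below the array medians of 5.41 to 5.54, and a 25th percentile filter removed it. Whether Spib stands above background was not tested. The difference was 0.08 log2 units in HSCs and 0.26 in MPPs (limma, adjusted p = 0.984 and 0.998). Without Erg +/- replicate 3 the HSC difference turned to -0.10, and without Erg -/- replicate 3 the MPP difference was 0.04.

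Markers of B cells, where Spib acts, are given beside it. Of 8 measured genes 5 had negative differences in Erg -/- MPPs, and the surrogate light chain genes Vpreb1 and Igll1 fell past the threshold. Vpreb1 fell by 4.75 log2 units (limma, adjusted p = 0.00326) and Igll1 fell by 1.88 (adjusted p = 0.000442). The mean of all 8 genes per array was 5.62 to 6.19 in Erg -/- MPPs and 6.64 to 7.03 in Erg fl/fl MPPs. Vpreb1 and Igll1 had the largest falls of the 8. Ebf1 (-1.23), Cd79a (-0.74) and Pax5 (-0.19) also had negative differences, short of the threshold. Ighm (0.78), Blnk (0.12) and Cd24a (0.05) had positive differences in Erg -/- MPPs. Irf8, the 1 other measured gene of the plasmacytoid dendritic cell list, stood at -0.52 log2 units there (limma, adjusted p = 0.998). Their part in the Spib values was not tested.

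**Figure D2:**
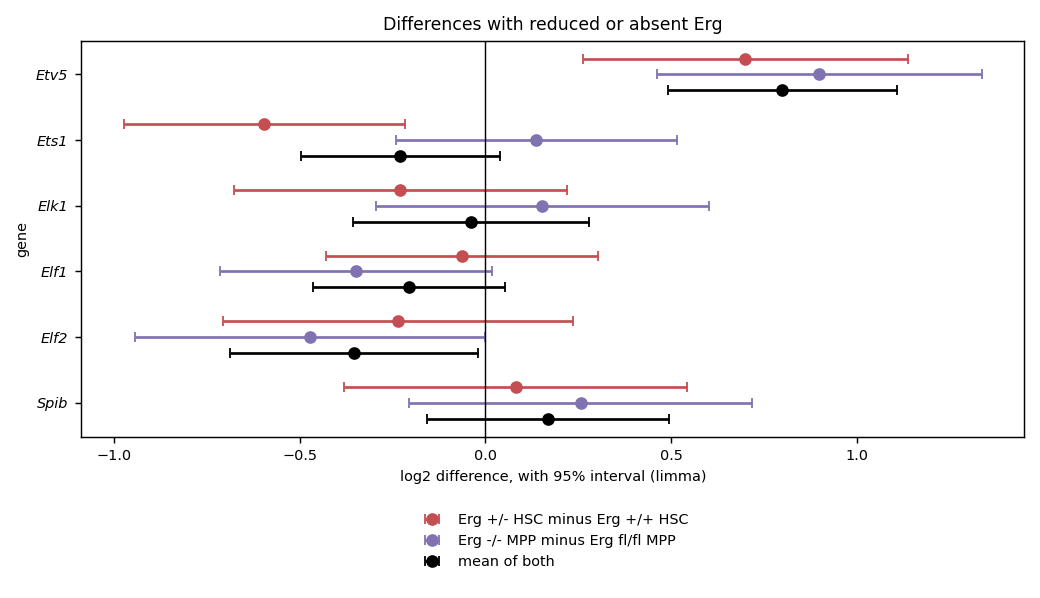
Log2 difference of each ETS gene (x axis, with 95% limma interval) in Erg +/- minus Erg +/+ HSCs, in Erg -/- minus Erg fl/fl MPPs, and as the mean of both. The 3 Etv5 intervals lie above 0, at 0.70, 0.90 and 0.80, whereas Ets1 stands at -0.60 in HSCs and 0.14 in MPPs.

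Counted over the 6 members, 0 passed the threshold in HSCs, where 0.02% of all genes did, and 0 in MPPs, where 0.0801% did. At an unadjusted p under 0.05 there were 2 members in HSCs, Etv5 higher and Ets1 lower, against 6.32% of all genes. In MPPs there were 2, Etv5 higher and Elf2 lower, against 4.79% of all genes. Elf2 lies at that limit (limma, unadjusted p = 0.0494, adjusted p = 0.998) and misses it under most alternatives, over all of which its unadjusted p ran from 0.0182 to 0.237. Arrays did not overlap for 2 members in HSCs (Etv5 and Ets1) and 2 in MPPs (Etv5 and Elf1), where 10.4% and 10.5% of all genes did not. For the mean effect 0 members passed, against 0.1% of all genes, and 2 (Etv5 and Elf2) had an unadjusted p under 0.05, against 6.86%. The median difference of the members was -0.15 in HSCs and 0.14 in MPPs, against 0.02 and -0.0040 over all genes, since members lay on both sides of 0. The members were listed with such results known, so their counts do not show that ETS genes differ from other genes.

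**Figure D3:**
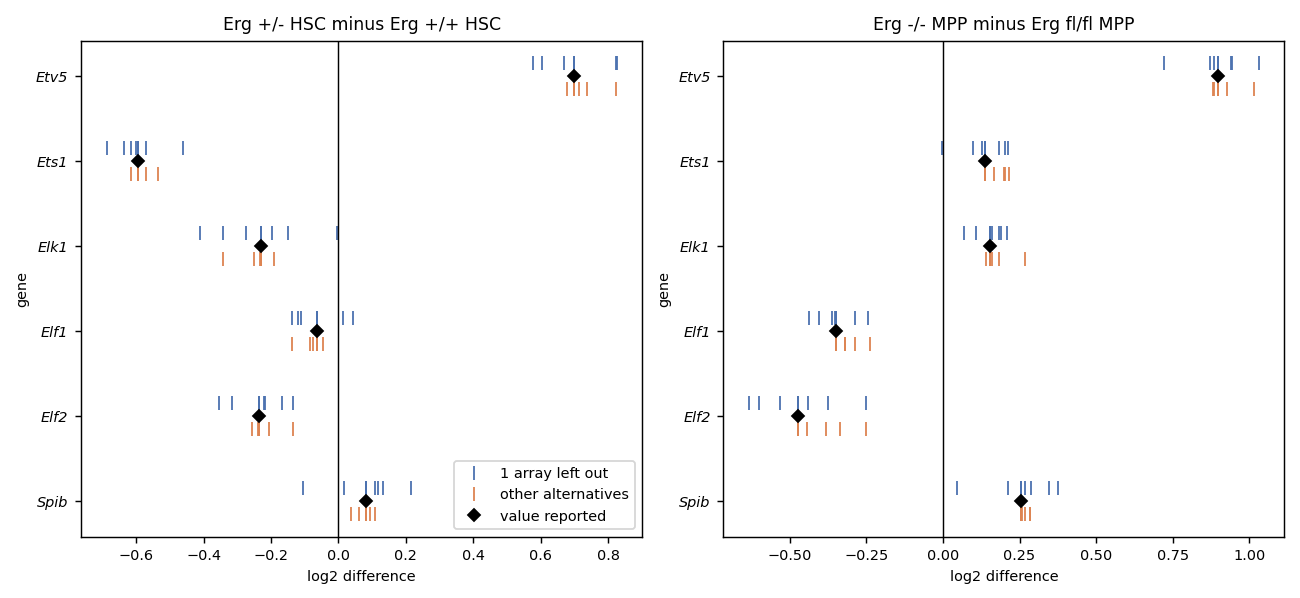
Log2 difference of each ETS gene (x axis) in HSCs (left) and MPPs (right) as reported (diamonds), with 1 of the 12 arrays left out (upper ticks) and under the other alternatives (lower ticks). All ticks of Etv5 lie above 0 in both panels, all of Ets1 lie below 0 in HSCs, and Elf1 and Spib have ticks on both sides of 0 in HSCs.

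The populations themselves were set side by side. Between Erg fl/fl MPPs and Erg +/+ HSCs the floxed allele and pIpC also differ, so these cannot be told apart from population, and over all genes the median difference was 0.12 log2 units. Elk1 had the largest difference among the members, -0.83 log2 units (-1.27 to -0.38), 1.77-fold lower in Erg fl/fl MPPs. It missed the threshold (limma, adjusted p = 0.0737), which it passed without Erg +/- HSC replicate 2 (0.0415), an array of neither group that enters the estimate of the spread. Etv5 stood at -0.54 and Ets1 at -0.41 (adjusted p = 0.154 and 0.196), and Ets1 at -0.27 without Erg fl/fl replicate 2. Of the 7 endothelial and stromal markers 5 had negative differences here too. Sparc fell by 1.40 log2 units (limma, adjusted p = 0.0351), and Cxcl12, a stromal chemokine gene, stood at -1.61 (adjusted p = 0.132). Their part in the Ets1 value was not tested. Elf1 stood at 0.25, Spib at 0.25 and Elf2 at -0.02. No member passed, against 1.28% of all genes. At an unadjusted p under 0.05 there were 3 members, all lower, against 22.3% of all genes, and groups did not overlap for 4 members, Elk1, Etv5, Ets1 and Spib, against 27% of all genes.

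Erg -/- MPPs were also set against Erg +/- HSCs, on the other 6 arrays. Here the number of Erg alleles, the Cre line and pIpC change together with the population, and these cannot be told apart. Elk1 stood at -0.44, and at -0.67 and -0.26 without Erg +/- replicate 2 or 3. Etv5 stood at -0.34, and at -0.21 and -0.52 without Erg -/- replicate 1 or 2. Ets1 stood at 0.32, and at 0.18 without Erg +/- replicate 3. These values keep their sign without any 1 array, but their size changes with single arrays. Spib stood at 0.42, and at 0.21 without Erg -/- replicate 3. Elf2 stood at -0.26, and at -0.16 without Erg -/- replicate 1, and Elf1 at -0.03. No member passed (limma, adjusted p of 0.446 or more) against 0.12% of all genes, and 0 had an unadjusted p under 0.05 against 3.85%. The groups did not overlap for 1 member, Ets1, against 20.1% of all genes.

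**Figure D4:**
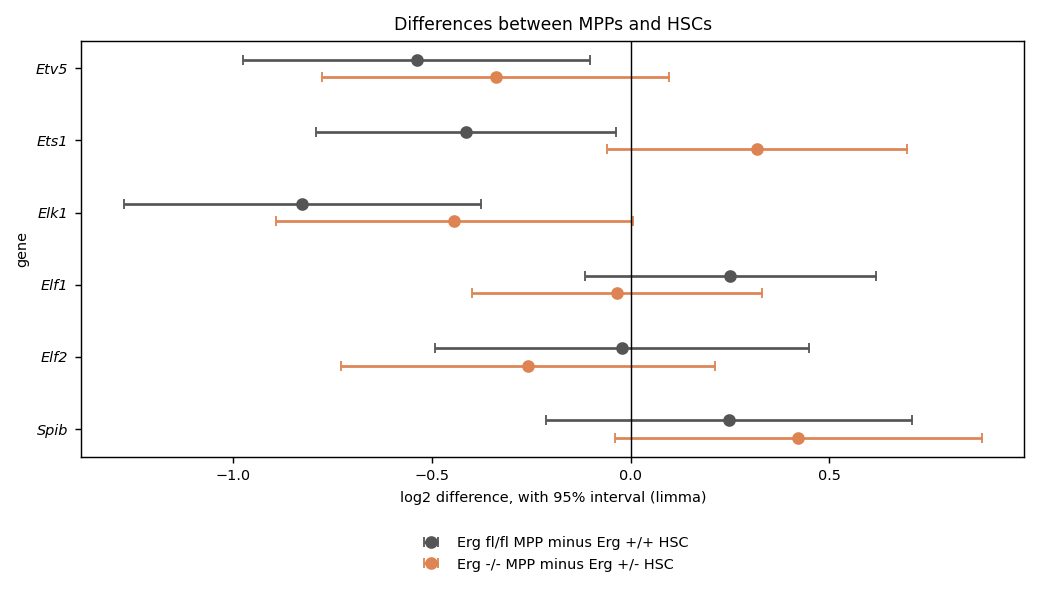
Log2 difference of each ETS gene (x axis, with 95% limma interval) in Erg fl/fl MPPs minus Erg +/+ HSCs and in Erg -/- MPPs minus Erg +/- HSCs. Elk1 lies at -0.83 and -0.44, and Ets1 at -0.41 and 0.32.

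In order of group means, neighbours mostly overlapped. For Etv5 the order was Erg +/- HSCs, Erg -/- MPPs, Erg +/+ HSCs and Erg fl/fl MPPs, and only the last step separated the arrays of neighbouring groups. For Ets1 it was Erg +/+ HSCs, Erg -/- MPPs, Erg fl/fl MPPs and Erg +/- HSCs, with the first step alone free of overlap. For Elk1, Elf1, Elf2 and Spib each group overlapped with its neighbour in the order.

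The 6 other ETS genes with a value stayed short of the threshold in both comparisons. In HSCs 4 of them and in MPPs 5 had positive differences, with medians of 0.11 and 0.10 log2 units. Etv2 and Elf5, with highest values of 5.36 and 4.92, lay below the array medians of 5.41 to 5.54. The group means of Etv1, at most 5.30, lay below them too. Whether these genes stand above background was not tested. Etv4, a PEA3 subfamily relative of Etv5, stood at 0.20 in HSCs and 0.27 in MPPs (limma, adjusted p = 0.917 and 0.998). Its level was 5.52 ± 0.0366 in Erg +/- HSCs and 5.31 ± 0.211 in Erg +/+ HSCs, and 5.69 ± 0.0402 in Erg -/- MPPs and 5.42 ± 0.175 in Erg fl/fl MPPs (SD, n = 3 each). Etv1, the remaining relative in that subfamily, stood at -0.03 and -0.28. Spic, a macrophage factor related to Spib, had the widest spread, from 5.18 to 8.65 in Erg +/- HSCs and from 5.26 to 7.18 in Erg +/+ HSCs. In MPPs it was 5.34 to 6.46 in Erg -/- and 4.42 to 5.47 in Erg fl/fl cells, a difference of 1.15 log2 units (adjusted p = 0.998). Etv3l, with the smallest p of the 6 between control populations, was 0.63 log2 units higher in Erg fl/fl MPPs than in Erg +/+ HSCs by its mean (adjusted p = 0.132).

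The measured genes of the ERK pathway, upstream of Elk1 and Etv5 among others, showed no passing change in either genotype comparison. Of 24 listed genes of the ERK cascade 6 were measured. All 6 had negative differences in Erg +/- HSCs and 4 in Erg -/- MPPs. Their medians were -0.31 and -0.16 log2 units, against 0.02 and -0.0040 over all genes. Sos2, a Ras exchange factor, stood at -0.49 in HSCs and -0.50 in MPPs (limma, adjusted p = 0.823 and 0.998). Ptpn11, the phosphatase SHP2, stood at -0.39 in HSCs, and Rasa1, a Ras-inactivating protein, at -0.38 in MPPs. Of the 8 measured ERK feedback genes 4 had positive differences in HSCs and 5 in MPPs. Spry4, a Sprouty inhibitor of the pathway, stood at 0.54 in HSCs and Spred2, a related inhibitor, at 0.44 in MPPs (adjusted p = 0.834 and 0.998).

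Of 13 measured immediate-early genes, the class at which Elk1 acts with SRF, 8 had positive differences in HSCs and 10 in MPPs, and 0 passed. Nr4a2, an orphan nuclear receptor, stood at 0.51 and Ier5 at 0.55 in Erg +/- HSCs (limma, adjusted p = 0.745 and 0.789). Btg2, an anti-proliferative gene, stood at -0.95 in Erg -/- MPPs (adjusted p = 0.977), and Klf4, a zinc finger factor, at 0.30. Of 10 measured partners of ETS factors 5 had positive differences in HSCs and 4 in MPPs. Runx3, a runt-domain factor, stood at -0.49 in HSCs and -0.79 in MPPs, Gabpb1, the partner subunit of the ETS protein GABPA, at -0.57 in MPPs, and Irf8 at 0.35 in HSCs. None of these passed (adjusted p of 0.885 or more).

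The genes most like each member over the 12 arrays were found by Pearson's r of the log2 values, as a description of arrays that share groups. Etv5 was most like Slc8a1, a sodium-calcium exchanger gene (r = 0.8996), and Tmco4 (0.8545). Elk1 was most like Shroom4, an actin regulator gene (0.9675), and Arf5, a small GTPase gene (0.9374). Ets1 was most like Tti1 (0.8251) and Efhc2 (0.824). Elf1 was most like Ints6, a subunit of the Integrator complex (0.8849), and Macf1, a cytoskeletal linker (0.8823). Elf2 was most like Rab5if (0.9184) and Pecam1 (0.903), and Spib was most like Lrtm2 (0.931) and Odaph (0.9135). With group means subtracted, r was 0.5738 and 0.6324 for the matches of Ets1 and 0.6921 or more for those of the other members. Of the 12 matches Shroom4 alone passed in the comparison of control populations, 1.33 log2 units lower in Erg fl/fl MPPs by its mean (limma, adjusted p = 0.0399), and 0 passed in HSCs or MPPs.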

How the data were processed

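RNA of sorted marrow cells was measured on 12 Affymetrix arrays. Per the labels' protocols the input was 20 ng of RNA, amplified to cDNA, of which 2.5 µg was labelled. The deposited values are log2 intensities, judged from their range of 0.939 to 13.4, and RMA and affy are the tools listed in the submitters' processing notes. RMA compresses folds of dim genes. Whether the arrays were normalised together, and the genome build, are not given in the sources used here. Arrays carry no depth, and their number limits the precision.

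Of 18719 probe sets 10657 have 1 symbol in the platform annotation, 523 several, and 7539 are unnamed here. A gene's probe set of highest mean was used, giving 9984 genes. One model in limma 3.58.1 under R 4.3.3, fitted with 4 group means and 8 residual degrees of freedom gave all 6 contrasts, two-sided, with Benjamini-Hochberg adjustment over 9984 genes and a threshold of 0.05. The fit was also run on simulated normal noise with added changes larger than any member difference. That run checked the estimates and does not give the power at the sizes seen here. Alternatives changed the normalisation (a repeated quantile normalisation, or centring on medians), the features (a 25th percentile filter, means of probe sets, or every probe set) or the fit (array weights, a robust intensity trend, a replicate block, a fit to the compared arrays alone, or 1 array left out). Leaving out the 2 arrays of lowest weight was added after seeing the data. Same-numbered arrays of the 2 genotypes deviated together at r = -0.08516 to 0.08624, so replicate numbers were not taken as pairs.

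The members and the 15 gene lists were chosen with earlier results of these data known. Named are all members, the 2 genes most like each, and from each of 5 pathway lists up to 2 genes of smallest p in HSCs and in MPPs. The likeness search skipped gene models without a proper name, small RNA genes and receptors for smell and taste. Values of other ETS genes and of markers were named after they were seen. Promoters came from a RefSeq table of GRCm38.p6, in which 5 of the 6 members matched, and GGAA and CCGGAAGT were searched on both strands. Protein sequences were not used here.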

Additional observations from a re-analysis of the deposited data

How the results depend on the processing

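Each group has 3 arrays, and the number of arrays limits the precision. Under the alternatives 0 members passed the threshold in the HSC comparison, the MPP comparison, the difference of effects and the populations with reduced Erg. In the mean of both effects 1 member, Etv5, passed with a repeated quantile normalisation, and in the control populations 0 to 1 passed with 1 array left out, the 1 being Elk1 without Erg +/- HSC replicate 2. The replicate block left 0 members past the threshold in each comparison and moved the adjusted p of the mean Etv5 effect to 0.197. The 25th percentile filter removed Spib, which has no value under it.

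Signs turned in 15 of 774 recomputed member differences, all of them short of the threshold. With a repeated quantile normalisation the mean effect on Elk1 was 0.038 (reported -0.04) and the Elf1 difference between populations with reduced Erg was 0.0037 (reported -0.03). With 1 array left out, Elf1 ranged from -0.14 to 0.042 and Spib from -0.10 to 0.22 in HSCs, Ets1 from -0.0043 to 0.21 in MPPs, Spib from -0.036 to 0.36 in the difference of effects, Elk1 from -0.13 to 0.075 in the mean effect, Elf2 from -0.24 to 0.14 between control populations and Elf1 from -0.14 to 0.070 between populations with reduced Erg. The cause of these turns was not tested.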

Other observations

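Markers of other lineages were read over the same arrays. In Erg +/- HSCs 5 of 5 granulocyte-macrophage, 3 of 4 mast cell and basophil, 6 of 9 T and NK cell and 0 of 2 megakaryocyte markers had positive differences, and 0 of these genes passed. In Erg -/- MPPs 3 of 5 granulocyte-macrophage, 3 of 4 mast cell and basophil and 6 of 9 T and NK cell markers had negative differences, and 1 of 2 megakaryocyte markers was negative. Among these genes 2, named after their values were seen, passed the threshold in MPPs. Mcpt8, a basophil protease gene, fell by 3.54 log2 units (limma, adjusted p = 0.0029), and Nkg7, a gene of cytotoxic granules, fell by 3.05 (adjusted p = 0.0274). The mast cell and basophil list averaged 4.87 to 5.27 per array in Erg -/- MPPs and 5.69 to 6.59 in Erg fl/fl MPPs. Of its 4 measured genes Mcpt8 fell most, and Ms4a2 (-0.64), Hdc (-0.37) and Il6ra (0.09) stayed short of the threshold. The granulocyte-macrophage list shares Irf8 with the partners of ETS factors described above.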
